A study of Homo sapiens with 18 samples.

Results

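OVCAR3 cells given non-specific IgA were compared with OVCAR3 cells given non-specific IgG, in 3 libraries against 3, over every gene that passed a filter on low counts. These 6 libraries are part of a series of 18, and 17173 of 55765 gene symbols in their count table were tested. OVCAR3 is an established cell line from a human high-grade serous carcinoma of the ovary that grows attached to plastic. The cells were kept in low-serum RPMI medium and received natural human IgA or natural human IgG at 0.5 µg/ml, antibodies with no stated antigen. Incubation lasted 24 h by the labels and the methods, although another description of the work gives a shorter time. A further 3 libraries of untreated OVCAR3 cells from the same table are given beside the results as the background level. The replicates were described as 3 experiments in each group, with no further detail of how they were separated, and the p-values measure the spread between these libraries. The comparison asked what IgA changes in tumour cells that carry its receptor beyond what an antibody of another class does.

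IgA is the antibody class of mucosal surfaces. Dimeric IgA binds the polymeric immunoglobulin receptor on the basolateral side of epithelial cells, is taken up into vesicles and is released on the other side together with a cleaved part of the receptor, a route called transcytosis. IgG is carried by another receptor, FcRn. Proteins made for secretion or for membranes pass the endoplasmic reticulum, where chaperones fold them, and a cell whose folding capacity is exceeded raises the genes of those chaperones in the unfolded protein response.

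The 6 libraries held between 27920733 and 36149185 counts. One of them, IgA replicate 3, stood apart: mitochondrial genes took 19.1% of its counts, against 5.75% to 8.12% in the other 5, and 16062 genes reached 10 counts in it, against 16870 to 17586. The biological coefficient of variation, the spread of a gene between replicates beyond counting error, was 26.7% among IgA libraries, 12.1% among IgG libraries and 11.3% among untreated ones. All 13 epithelial tumour markers were detected, 1 called higher (0 if IgG replicate 1 or IgG replicate 2 or IgG replicate 3 was left out) and 4 lower (2 if IgG replicate 2 was left out and 1 if IgG replicate 3 was left out), with summed levels of 165775 to 252431 normalised counts with IgA and 171836 to 219212 with IgG. Of 22 leukocyte markers 5 had enough counts to be tested, 0 were called, and their sum was 169.8 to 214 with IgA and 179 to 206 with IgG, with CD3D, CD3G, CD2, MS4A1, ITGAM, TYROBP and NKG7 at 0 in every library. Of the endothelial markers 3 were tested and 0 called. The 10 immunoglobulin constant region genes examined were also at 0 throughout. PIGR, the gene of the IgA receptor, was detected at a low level, 21, 4.64 and 13.4 normalised counts in the IgA libraries and 20.1, 20.4 and 35.9 in the IgG libraries, and the groups overlapped (log2 fold change with its standard error -0.97 ± 0.63, edgeR adjusted p 0.309). Normalised counts were put on the scale of 1 library of mean effective size, and they compare libraries for a gene, not genes with each other.

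With IgA, 1599 genes (9.31% of those tested) were higher than with IgG and 1326 (7.72%) were lower (two-sided edgeR quasi-likelihood test with a Benjamini-Hochberg adjusted p under 0.05, the test behind every adjusted p given here). Over all genes the median log2 fold change was -0.00209. Higher genes were 54.7% of the calls, a share that was 43.9% with upper quartile factors and 22.3% with scaling by library size alone, which shifted the median of all genes to -0.239, so that the changes below are relative to the bulk of genes. A value after ± is the standard error of a log2 fold change. These percentages are the background against which the gene lists below are read. Separate groups came with nearly every call, in 1594 of the 1599 higher and 1325 of the 1326 lower genes, so that separation adds little to a call. The lists differed widely in how many of their genes moved and in which direction. The called share was far above the background among genes of protein folding in the endoplasmic reticulum and of cholesterol synthesis. In the lower direction it was above the background among zinc finger genes and in the smaller Notch, WNT and serous identity lists. It was below the background in both directions for DNA replication, where 2 of 38 genes were higher (0 if IgA replicate 1 or IgG replicate 2 or IgG replicate 3 was left out and 1 if IgA replicate 2 or IgG replicate 1 was left out) and 0 lower (1 if IgA replicate 2 was left out), and for mitosis, where 1 of 35 was higher (3 if IgA replicate 2 was left out, 2 if IgA replicate 3 or IgG replicate 1 was left out and 0 if IgG replicate 2 or IgG replicate 3 was left out) and 2 lower (1 if IgA replicate 1 or IgG replicate 1 or IgG replicate 2 or IgG replicate 3 was left out and 4 if IgA replicate 2 was left out). Type I interferon and RNA sensing genes gave 1 of 27 higher (0 if IgA replicate 1 or IgA replicate 3 or IgG replicate 1 or IgG replicate 2 or IgG replicate 3 was left out and 3 if IgA replicate 2 was left out), 0 lower (2 if IgA replicate 3 was left out) and a median of 0.01. Counts of calls fell when 1 IgG library was left out, to 530 higher and 349 lower in the absence of IgG replicate 3, to 589 and 464 if IgG replicate 2 was left out and to 833 and 697 if IgG replicate 1 was left out, and the lower count also fell to 782 without IgA replicate 1. In every one of the 6 fits that left out a library 458 genes remained called as higher and 313 as lower, and the genes described singly below are of this kind unless a sentence says otherwise.

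**Figure D1:**
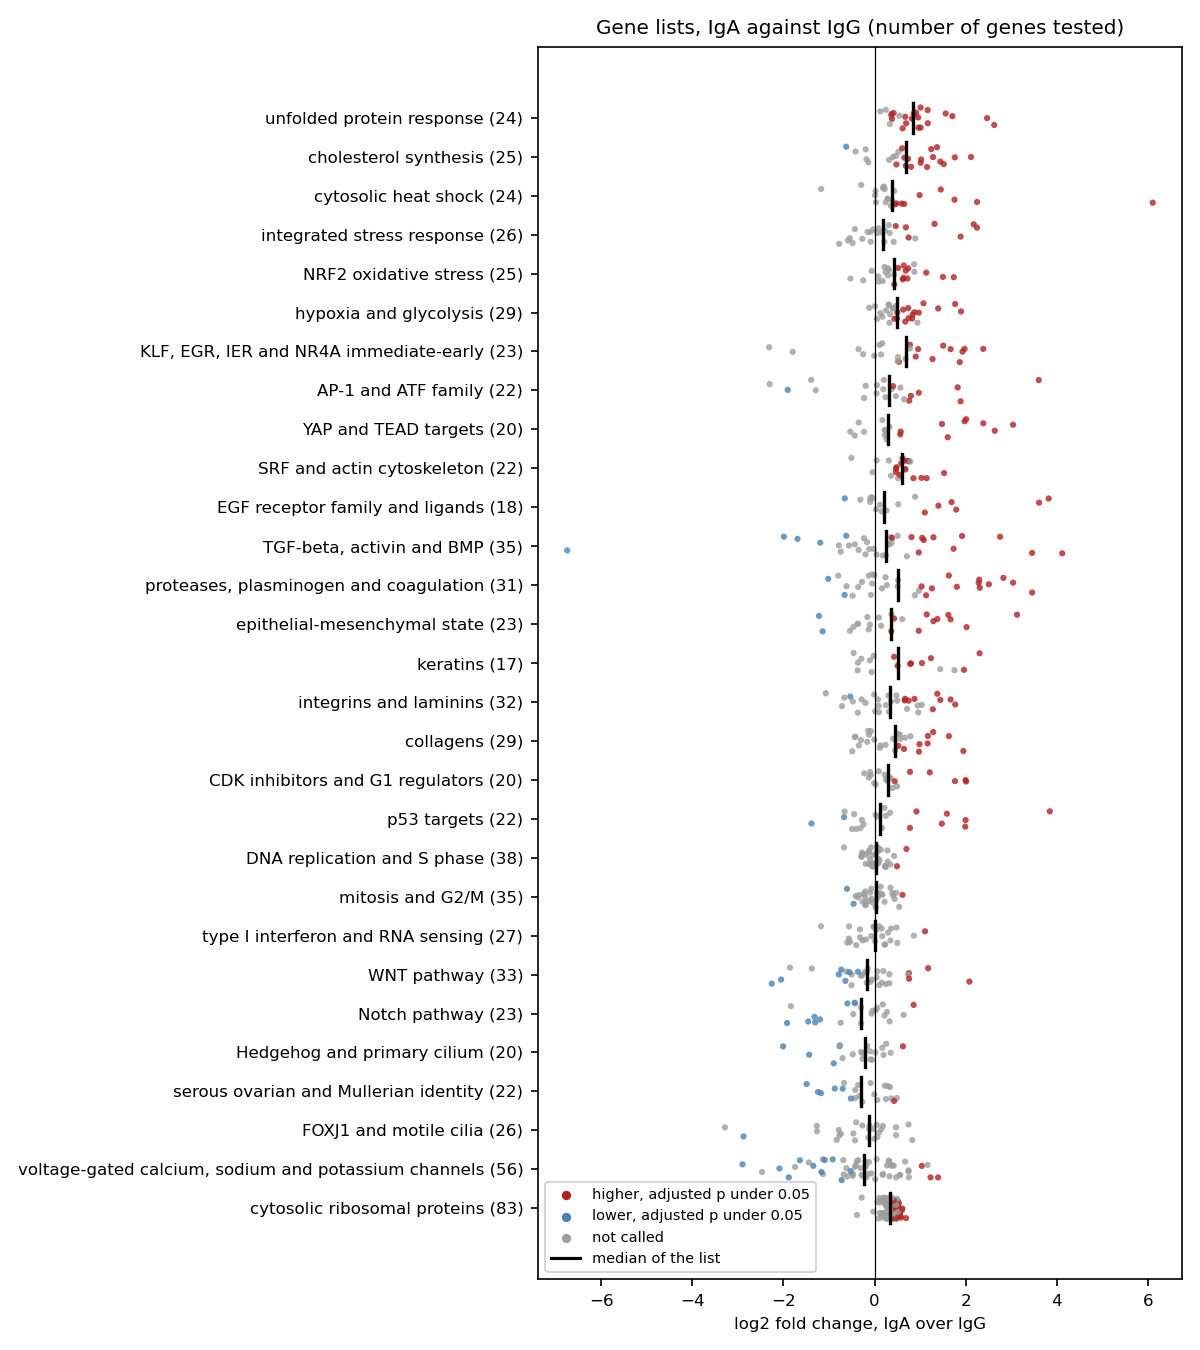
Log2 fold change of IgA over IgG (x axis) for each tested gene of 29 gene lists (y axis, number of genes tested in brackets), with called genes in colour and the median of each list as a black bar. Every point of the unfolded protein response list lies above 0, and the medians run from 0.84 for that list to -0.30 for the Notch and serous identity lists.

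The unfolded protein response had the highest share of increased genes of the lists examined outside the NF-kB targets. Of 24 tested genes 19 were higher with IgA, 0 were lower, and the median log2 fold change was 0.84; 15 of the 19 stayed called whichever library was left out. The promoters of several of these genes carry a known element, CCAAT followed after 9 bases by CCACG, on either strand, called the ER stress response element. Within 250 bases before and 50 after the start of a gene (RefSeq, GRCh38.p14), it was present in 6 of 23 promoters of this list and in 0.122% of the promoters of tested genes. In the whole table it was present in 22 of 27305 promoters, or 0.0806%. The 6 were HSPA5, HSP90B1, CALR and CANX, which were called higher, and XBP1 and CRELD2, which were not called. Of these CANX, a lectin chaperone, was higher by 0.37, a call that did not hold without IgA replicate 1 (0.33, adjusted p 0.0733), IgA replicate 2 (0.38, adjusted p 0.0568), IgG replicate 1 (0.39, adjusted p 0.119), IgG replicate 2 (0.36, adjusted p 0.176) and IgG replicate 3 (0.35, adjusted p 0.124). HERPUD1, SDF2L1 and MANF, higher by 2.63, 1.71 and 1.56, had 0 exact matches in this window. Only this exact form was searched, so other forms of the element may be present in them. A link between the element and the size of a change was not tested. The promoters of the chaperones HSPA5 (chr9:125241294-125241593, minus strand) and HSP90B1 (chr12:103930160-103930459, plus strand) are shown 5′ to 3′ with the outer letters of the element in capitals.
HSPA5: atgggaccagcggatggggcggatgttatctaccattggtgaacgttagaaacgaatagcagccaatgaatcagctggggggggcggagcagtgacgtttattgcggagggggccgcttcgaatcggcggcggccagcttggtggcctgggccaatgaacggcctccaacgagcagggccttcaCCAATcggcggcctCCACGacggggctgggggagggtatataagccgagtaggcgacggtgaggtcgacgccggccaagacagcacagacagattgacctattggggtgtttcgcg
HSP90B1: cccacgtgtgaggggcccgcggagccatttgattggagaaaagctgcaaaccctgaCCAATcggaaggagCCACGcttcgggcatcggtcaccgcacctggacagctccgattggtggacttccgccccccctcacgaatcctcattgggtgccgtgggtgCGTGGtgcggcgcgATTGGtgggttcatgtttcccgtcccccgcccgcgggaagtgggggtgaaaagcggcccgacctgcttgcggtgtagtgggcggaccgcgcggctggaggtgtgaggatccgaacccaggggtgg

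HSPA5 encodes BiP, the main chaperone of the endoplasmic reticulum. Its level was 105082, 78345 and 115378 normalised counts in the 3 IgA libraries, 19538, 17640 and 16725 in the 3 IgG libraries and 18186, 18859 and 16492 in the untreated ones. The lowest IgA library was thus several times above the highest of the other 6. The log2 fold change over IgG was 2.47 ± 0.16 (adjusted p 2.79e-05). HERPUD1, a membrane protein that helps to clear misfolded proteins from this compartment, stood at 8908, 5605 and 8892 normalised counts with IgA against 1168, 1222 and 1396 with IgG, a log2 fold change of 2.63 ± 0.18 (adjusted p 3.97e-05). The groups were far apart for this gene too, and its untreated libraries, at 1236, 1125 and 1360, lay with IgG.

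The other called members of the folding machinery rose by less and are given by role. SYVN1, EDEM1 and EDEM2 of the same list were at 0.25, 0.54 and 0.13 and were not called. Among the cofactors and partners of BiP, SDF2L1 rose by 1.71 on the log2 scale, DNAJB9 by 1.17, DNAJC3 by 1.01, HYOU1 by 0.91 and DNAJB11 by 0.86. MANF, a secreted factor released under stress of this compartment, had 7382, 4426 and 5703 normalised counts with IgA and 2182, 2028 and 1718 with IgG (log2 change 1.56 ± 0.18, adjusted p 0.000747). The disulfide isomerases PDIA4 and PDIA6 rose by 1.01 and 0.69, HSP90B1, the compartment's own HSP90, by 0.97, and the calcium-binding chaperone CALR by 0.82. Of the 3 sensors that start the response, ERN1, which encodes IRE1, rose by 1.17 and EIF2AK3, which encodes PERK, by 0.96. ATF6, the third sensor, rose by 0.42, a call that did not hold without IgA replicate 1 (0.40, adjusted p 0.0505), IgG replicate 1 (0.43, adjusted p 0.0774), IgG replicate 2 (0.38, adjusted p 0.142) and IgG replicate 3 (0.43, adjusted p 0.0746). XBP1, the transcription factor whose mRNA is spliced by IRE1, had a log2 fold change of 0.36 and was not called, and these counts do not separate its spliced from its unspliced form. Each IgA library was above each IgG library for 23 of the 24 genes, against 20.6% of all genes tested.

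Genes downstream of PERK and ATF4 split into those that rose and those that did not. Of 26 genes of the integrated stress response 7 were higher (4 if IgG replicate 1 or IgG replicate 2 was left out), 0 were lower (3 with DESeq2 and 5 with no low-count filter) and the median was 0.19. That median was -0.05 under scaling by library size alone. It was 0.02 if IgG replicate 1 was left out, 0.05 if IgG replicate 2 was, and 0.49 if IgG replicate 3 was. PPP1R15A, the regulatory subunit that ends the response by dephosphorylating eIF2alpha, had 7169, 3359 and 7775 normalised counts with IgA and 1277, 1249 and 1320 with IgG, a log2 fold change of 2.25 ± 0.26 (adjusted p 0.000751). DDIT3, which encodes the transcription factor CHOP, rose by 2.18, ATF3 by 1.89 and the mTOR inhibitor DDIT4 by 1.32. The groups were separate for all 4 genes, as for nearly all called genes. Genes of amino acid synthesis were not called. ASNS, PSAT1, PHGDH and PSPH had log2 fold changes of -0.48, -0.54, -0.43 and -0.58, and ATF4 itself was at 0.06. IgG replicate 3 was the highest of the 6 libraries for each of these 4 synthesis genes, and without it the values were -0.02, -0.26, -0.21 and -0.40.

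**Figure D2:**
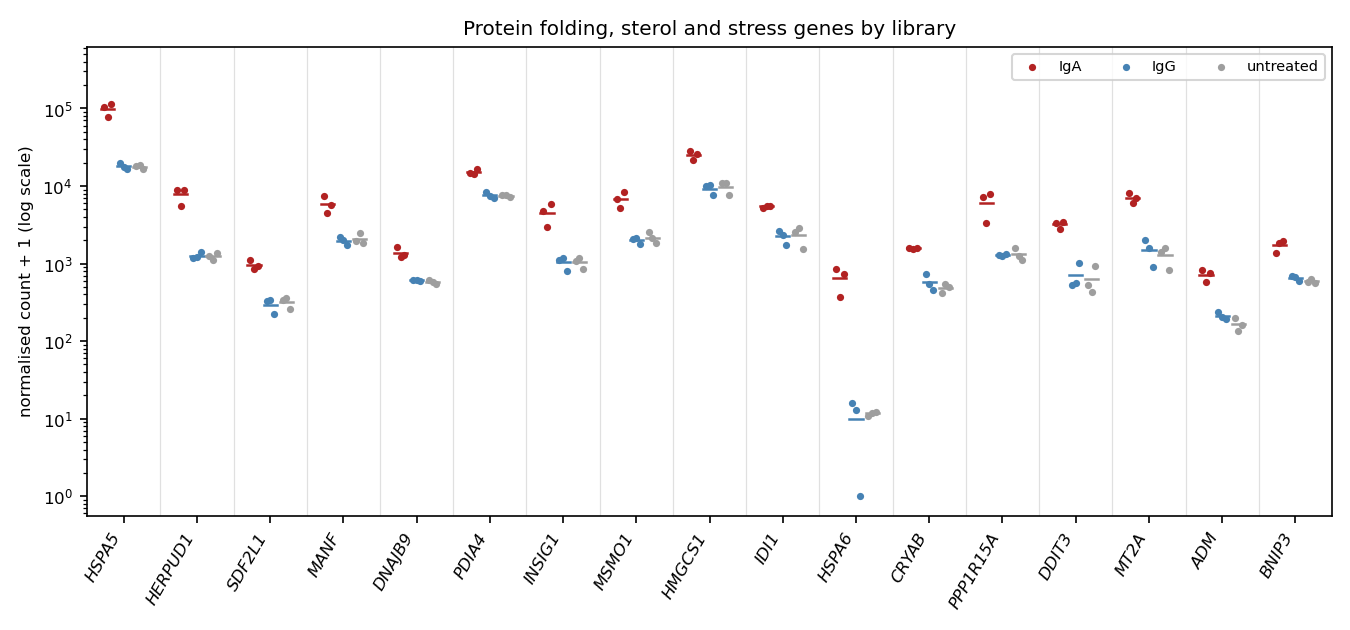
Normalised count plus 1 on a log axis for 17 genes of protein folding, sterol synthesis and stress in each IgA, IgG and untreated library, with a bar at the mean of each group of 3. The IgA points lie above all IgG and untreated points for every gene shown, and HSPA6 is at 0 in IgG replicate 3.

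In the cytosolic heat shock list 9 of 24 genes were higher (5 if IgA replicate 1 or IgG replicate 2 was left out and 2 if IgG replicate 3 was left out) and 0 lower, with a median of 0.38. HSPA6, an HSP70 gene that is silent in most unstressed human cells, had 852, 366 and 725 normalised counts with IgA and 14.8, 11.9 and 0 with IgG, a log2 fold change of 6.11 ± 0.58 (adjusted p 0.000296). IgA replicate 2 was the lowest of the 3 IgA libraries for this gene and still far above every IgG library. Its promoter (chr1:161524290-161524589, plus strand, GRCh38.p14) is shown because it belongs to the gene with the largest increase outside the NF-kB list. GAANNTTC, a short form of the heat shock element, is in capitals. Only this form was searched, and other arrangements of the element were not. It was found in 8 of 21 promoters of the list and in 4.76% of those of tested genes. Of the 8, HSPA6, HSPA1A and HSPA1B were called higher, and HSPA1L, HSPA8, DNAJA1, HSPB1 and CHORDC1 were not called.
HSPA6: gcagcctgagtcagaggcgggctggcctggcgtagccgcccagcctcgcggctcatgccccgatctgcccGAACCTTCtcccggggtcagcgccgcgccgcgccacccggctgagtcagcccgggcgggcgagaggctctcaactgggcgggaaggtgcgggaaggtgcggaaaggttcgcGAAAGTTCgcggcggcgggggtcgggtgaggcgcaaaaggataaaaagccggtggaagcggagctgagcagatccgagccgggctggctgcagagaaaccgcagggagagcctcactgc
The small heat shock protein gene CRYAB had 1571, 1556 and 1589 normalised counts with IgA and 732, 536 and 451 with IgG (log2 change 1.45 ± 0.17, adjusted p 0.000777). The inducible HSP70 genes HSPA1A and HSPA1B were higher by 1.76 and 2.25, the first a call that did not hold without IgG replicate 3 (1.65, adjusted p 0.0622) and the second a call that did not hold without IgG replicate 3 (2.14, adjusted p 0.0772). These paralogs are so alike that reads may be shared or lost between them.

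Of 6 tested genes of the metallothionein list 3 were higher (1 if IgG replicate 2 or IgG replicate 3 was left out), 0 were lower and the median was 0.37. MT2A, a metal-binding metallothionein, had 8190, 6090 and 6945 normalised counts with IgA and 1991, 1602 and 915 with IgG, without overlap (log2 change 2.23 ± 0.25, adjusted p 0.000599). Of 25 NRF2 target and oxidative stress genes 11 were higher (5 if IgG replicate 2 was left out and 2 if IgG replicate 3 was left out), 0 were lower and the median was 0.44. The transcription factor gene NFE2L2, which encodes NRF2, rose by 0.69 and the quinone reductase NQO1 by 0.72. GCLM, a subunit of the enzyme that makes glutathione, was at 0.24 and was not called.

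Cholesterol synthesis was the metabolic pathway that changed most. Of 25 genes 16 were higher with IgA, 1 was lower and the median log2 fold change was 0.69, and 11 of the 16 were called in every fit that left out a library. INSIG1, the membrane protein that holds back sterol-sensing SREBP factors, had 4714, 2968 and 5887 normalised counts with IgA, 1119, 1193 and 810.3 with IgG and 1086, 1164 and 852 in untreated cells (log2 change 2.12 ± 0.24, adjusted p 0.000656). IgA replicate 2 was the lowest IgA library and was above every IgG library. HMGCS1, an early enzyme of the route, stood at 28219, 21698 and 25859 with IgA and 9919, 10331 and 7566 with IgG, a log2 fold change of 1.45 ± 0.15 (adjusted p 0.0005). Further along the route IDI1 rose by 1.28, SQLE by 1.01, MSMO1 by 1.76, HSD17B7 by 1.37 and DHCR7 by 0.74. LSS and the transcription factor SREBF2 were at -0.18 and -0.13, neither called. The exact sequence TCACCCCAC, a form of the sterol regulatory element, was found in 1 of 18 promoters of this list, that of SREBF2. It was found in 0.409% of those of tested genes. Other forms of the element were not searched. TM7SF2, a sterol reductase, was the 1 gene called lower (-0.62), a call that did not hold without IgA replicate 2 (-0.52, adjusted p 0.0776), IgG replicate 1 (-0.73, adjusted p 0.0529), IgG replicate 2 (-0.56, adjusted p 0.153) and IgG replicate 3 (-0.59, adjusted p 0.133). The fatty acid list moved less, with 6 of 19 higher (3 if IgG replicate 2 or IgG replicate 3 was left out) and 2 lower (1 if IgG replicate 2 or IgG replicate 3 was left out).

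Of 29 genes of glycolysis and hypoxia 15 were higher (7 if IgG replicate 2 was left out and 8 if IgG replicate 3 was left out), 0 were lower and the median was 0.49. ADM, a vasodilator peptide induced by low oxygen, had 819.8, 579.7 and 749 normalised counts with IgA and 237, 201 and 189.8 with IgG, and BNIP3, which marks mitochondria for removal, had 1359, 1844 and 1981 against 696, 667 and 602. Both genes were separate between groups, with log2 fold changes of 1.77 and 1.40 (adjusted p 0.000464 and 0.000629). Of the enzymes and transporters, PFKP rose by 1.08, HK1 by 0.84, HK2 by 0.67, LDHA by 0.74 and the glucose carrier SLC2A1 by 0.75. SLC16A3, the exporter of lactate, rose by 0.94. EGLN3, a strong target of hypoxia, was at 0.34 and was not called. PCK1, the entry enzyme of the opposite route, gluconeogenesis, went the other way, with 4.2, 0 and 0 normalised counts in the IgA libraries and 44.5, 44.1 and 75.9 in the IgG libraries, so that 2 IgA libraries held no count (log2 fold change -5.10, adjusted p 0.00487, fitted on few counts).

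Of 23 immediate-early genes of the KLF, EGR, IER and NR4A list 11 were higher, 0 lower and the median was 0.68. CYR61 and CTGF encode secreted matricellular proteins and are classic outputs of the YAP and TEAD factors. CYR61 had 36228, 27928 and 32042 normalised counts with IgA and 7132, 6228 and 5019 with IgG, and CTGF had 6951, 5504 and 5507 against 1790, 1681 and 1091. Neither gene overlapped between groups, and the log2 fold changes were 2.39 ± 0.16 (adjusted p 2.79e-05) and 1.98 ± 0.19 (adjusted p 0.000286). The factors KLF6, KLF7 and KLF5 rose by 1.67, 1.51 and 0.78, the orphan receptor NR4A1 by 1.87 and the salt-inducible kinase SIK1 by 1.93. Of 20 YAP and TEAD targets 9 were higher and 0 lower, ANKRD1 by 2.64, AXL by 1.61 and NT5E by 1.48, while YAP1 and TEAD1 themselves were at 0.23 and 0.27 and were not called.

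In the AP-1 and ATF family 7 of 22 genes were higher and 1 lower. MAFF, a small partner of leucine zipper factors, had 2098, 1129 and 2054 normalised counts with IgA and 125, 140.1 and 169 with IgG, the largest increase of the family (log2 change 3.61 ± 0.25, adjusted p 3.91e-05). CREB5 rose by 1.83 and JUNB by 0.80. FOS, FOSB and JUN were not called, at -1.39, -1.29 and -0.19, and so the family did not move as one.

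Many actin genes controlled by SRF rose by small amounts. Of 22 genes 14 were higher (9 if IgG replicate 1 was left out and 7 if IgG replicate 2 or IgG replicate 3 was left out), 0 were lower and the median was 0.60. ACTG1, cytoplasmic gamma actin, had 142352, 103386 and 120325 normalised counts with IgA and 61453, 55849 and 48412 with IgG (log2 change 1.14 ± 0.16, adjusted p 0.00161), and the groups were clear of each other. ACTB, TPM1, TPM4 and ACTN1 rose by 0.74, 0.75, 0.68 and 0.65, and RND3, an atypical small GTPase, by 1.03. SRF itself was at -0.04 and was not called. Actin genes have many processed pseudogenes, and reads that match a pseudogene as well may be lost.

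Among genes of the EGF family, ligands were called higher and no receptor was. Of 18 genes of the family 6 were higher and 1 lower (0 if IgG replicate 3 was left out), and those 6 were called in every fit that left out a library. EREG had 640.1, 481 and 862 normalised counts with IgA and 64.6, 35.7 and 39 with IgG (log2 change 3.82 ± 0.30, adjusted p 8.14e-05). AREG had 110.4, 110.4 and 80.4 against 12.2, 6.79 and 5.13, a gene close to silent without IgA (log2 change 3.61 ± 0.43, adjusted p 0.000812). TGFA rose by 1.69, HBEGF by 1.10 and NRG1 by 1.79, as did ERRFI1, a feedback inhibitor of the receptor, by 1.40. EGFR was at -0.10 and ERBB2 at 0.52, neither called. ERBB3 fell by 0.65, a call that did not hold without IgG replicate 3 (-0.54, adjusted p 0.0689). Among other growth factors and receptors FGF2 rose by 1.45 and MET by 1.18, and FGFR2 fell from 1325, 1505 and 1777 normalised counts with IgG to 669.5, 644 and 474 with IgA (log2 change -1.36 ± 0.17, adjusted p 0.000976).

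The TGF-beta, activin and BMP family moved in both directions, with 11 of 35 genes higher and 5 lower. INHBA, the subunit of activin A, had 198, 166 and 374 normalised counts with IgA and 26.2, 13.6 and 1.03 with IgG (log2 change 4.12 ± 0.62, adjusted p 0.00287). INHBB, the subunit of activin B, went the opposite way, from 1236, 1712 and 2458 with IgG to 515, 558 and 278 with IgA (log2 change -1.99 ± 0.29, adjusted p 0.00225). FST, the follistatin that binds and blocks activins, fell from 2197, 2588 and 2686 to 789, 935 and 584 (log2 change -1.69 ± 0.17, adjusted p 0.000421). None of these 3 genes overlapped between groups, and IgA replicate 3, the library with 19.1% mitochondrial counts, was the most extreme for each. Their calls held without that library.

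Of the ligands BMP7 fell by 1.19 on the log2 scale, from 8756, 10447 and 11383 normalised counts to 5279, 4703 and 3400. Among inducible targets the pseudoreceptor BAMBI rose by 2.76, the BMP target genes ID1, ID3 and ID4 by 1.29, 1.74 and 1.92, and the inhibitory SMAD7 by 1.05. SMAD3 rose by 0.81, while the receptor gene TGFBR2 was at -0.17 and was not called. LRRC32, which encodes GARP, the surface anchor of latent TGF-beta, had 0, 0.928 and 0 normalised counts with IgA, 38.4, 50.9 and 68.7 with IgG and 12.7, 22.8 and 41.4 in untreated cells. At most 1 count was present in any IgA library, and against a floor of 3 counts per library IgA left the gene at least 15.2-fold lower.

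Among 31 genes of pericellular proteolysis and clotting 12 were higher and 2 lower (1 if IgG replicate 1 was left out and 0 if IgG replicate 2 or IgG replicate 3 was left out), with a median of 0.51 that was 0.28 to 0.29 without IgA replicate 1, IgA replicate 3 or IgG replicate 1. F3, tissue factor, which starts clotting, had 13736, 9007 and 17992 normalised counts with IgA and 2102, 1477 and 1366 with IgG (log2 change 3.04 ± 0.26, adjusted p 0.000128). The urokinase gene PLAU had 19097, 13031 and 17173 against 4398, 4862 and 4819, and its receptor PLAUR had 1206, 892 and 1680 against 227, 252 and 182. All 3 genes were separate between groups, with log2 fold changes of 1.81 for PLAU and 2.51 for PLAUR (adjusted p 0.000102 and 0.000273). The inhibitors TFPI2 and SERPINE2 rose by 2.31 and 1.63, and the adhesive glycoprotein THBS1 by 2.29. The membrane protease MMP14 was at 0.52 and was not called.

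LAMB3 and LAMA3 encode laminin chains of the basement membrane. LAMB3 had 11960, 8579 and 17839 normalised counts with IgA and 3816, 3755 and 3672 with IgG, and its log2 fold change of 1.77 ± 0.22 (adjusted p 0.00106) was followed by 1.44 for LAMA3. Of 32 integrin and laminin genes 9 were higher and 1 lower (0 if IgA replicate 1 or IgA replicate 2 or IgG replicate 2 or IgG replicate 3 was left out and 3 if IgA replicate 3 was left out), among them ITGA5, ITGB3 and ITGA3 at 1.38, 1.28 and 0.88. Of 17 keratins 8 were higher (5 if IgG replicate 2 or IgG replicate 3 was left out) and 0 lower. They included the stratified and hair type keratins KRT14 (2.31), KRT17 (1.96) and KRT81 (1.24), and also KRT23 (1.04) and KRT80 (0.78). The simple epithelial KRT8, KRT18 and KRT19 were at -0.36, -0.10 and -0.37 and were not called. KRT14, KRT16 and KRT17 are close paralogs with near-identical pseudogenes, so their values are uncertain.

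Of 23 genes that mark the epithelial or mesenchymal state 10 were higher and 2 lower (1 if IgG replicate 3 was left out), with a median of 0.37. The transcription factor SNAI2 had 1471, 1131 and 3164 normalised counts with IgA and 235, 200.3 and 223 with IgG (log2 change 3.13 ± 0.34, adjusted p 0.000556). ZEB1 and TWIST1 rose by 2.02 and 1.62, vimentin (VIM) by 1.29 and fibronectin (FN1) by 1.15. GRHL2, a factor that keeps the epithelial state, fell from 1760, 1877 and 2403 to 1052, 992 and 694 normalised counts (log2 change -1.14 ± 0.18, adjusted p 0.00335), and all these groups were separate. CDH1 and EPCAM, the surface proteins of epithelium, were at -0.31 and 0.03, and SNAI1 at 0.37, none called. Of 29 collagens 9 were higher (5 if IgG replicate 1 or IgG replicate 2 was left out and 3 if IgG replicate 3 was left out) and 0 lower, with COL8A1 at 1.63, COL5A2 at 1.17 and COL4A1 at 0.98. The summed level of 12 fibroblast markers moved with these genes, at 6666 to 14026 normalised counts with IgA and 4307 to 5080 with IgG, and 3 of the 5 tested were higher (0 if IgG replicate 3 was left out). That sum came almost wholly from collagen I, collagen V and FBN1. LUM was at or below 23.8 in every library. The 7 other markers, COL3A1, DCN, FAP, PDGFRB, THY1, POSTN and PDPN, were at or below 10.5 in every library, and the part of other cells in these increases was not tested.

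Junction genes changed singly. CLDN1, a tight junction claudin, had 43450, 37963 and 36093 normalised counts with IgA and 9393, 8205 and 10311 with IgG (log2 change 2.07 ± 0.13, adjusted p 2.55e-05). CLDN3, a claudin of serous carcinoma, fell from 1381, 1912 and 2440 to 865, 712 and 454 (log2 change -1.49 ± 0.25, adjusted p 0.00468). CLDN14 had at most 3 counts in any IgG library and 33.6, 25 and 95.3 normalised counts with IgA, at least 18.7-fold higher. Over 32 junction genes 5 were higher (3 if IgG replicate 1 or IgG replicate 2 or IgG replicate 3 was left out) and 4 lower (2 if IgG replicate 2 or IgG replicate 3 was left out). SDC4, a heparan sulfate proteoglycan, rose by 2.41 and the hyaluronan receptor CD44 by 1.42.

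**Figure D3:**
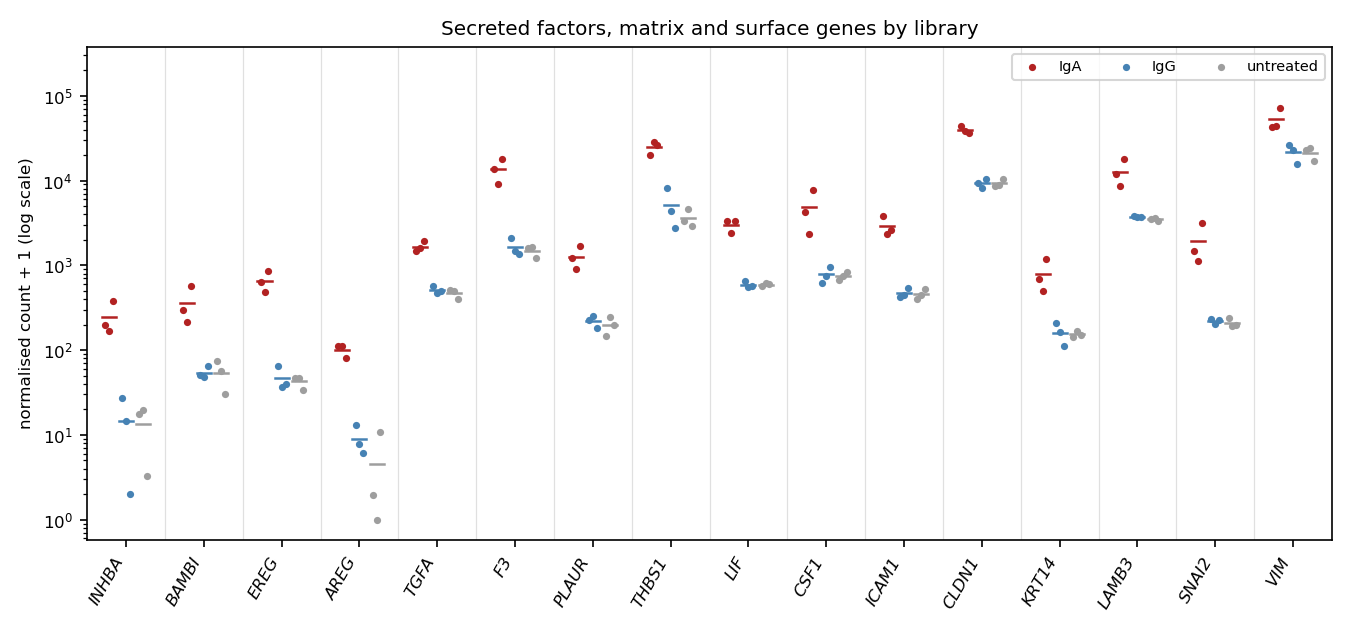
Normalised count plus 1 on a log axis for 16 genes of secreted factors, matrix and surface proteins in each IgA, IgG and untreated library, with a bar at the mean of each group of 3. The IgA points lie above all IgG points for every gene shown, and AREG and INHBA have the lowest counts without IgA.

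Cytokines and surface proteins through which tumour cells meet immune cells also changed. Whether these changes are separate from those of the NF-kB targets was not tested. Of 31 interleukin and cytokine class genes 11 were higher (6 if IgG replicate 1 or IgG replicate 2 or IgG replicate 3 was left out) and 4 lower (2 if IgA replicate 1 was left out, 1 if IgG replicate 1 or IgG replicate 2 was left out and 0 if IgG replicate 3 was left out). LIF, an IL-6 family cytokine, had 3336, 2417 and 3300 normalised counts with IgA and 654, 559 and 565 with IgG (log2 change 2.35 ± 0.15, adjusted p 2.58e-05). CSF1, the growth factor of macrophages, had 4304, 2371 and 7840 against 623, 756 and 967 (log2 change 2.63 ± 0.37, adjusted p 0.00183). IL11, IL32 and IL18 rose by 3.94, 2.51 and 1.14. PTX3, a soluble pattern recognition protein, had 1085, 995 and 1240 normalised counts with IgA and 37.5, 35.7 and 19.5 with IgG, a difference far wider than the spread in either group (log2 change 5.14 ± 0.24, adjusted p 3.43e-06). Of 24 ligands for T cells and NK cells 9 were higher (3 if IgG replicate 2 or IgG replicate 3 was left out) and 0 lower, with ICAM1 at 2.64, the complement regulator CD55 at 1.62 and the NKG2D ligand MICA at 0.99. CD274, which encodes PD-L1, was at -1.04 and was not called. MHC class I and antigen processing gave 7 of 20 higher (2 if IgA replicate 1 was left out, 1 if IgG replicate 1 or IgG replicate 3 was left out and 3 if IgG replicate 2 was left out) and 0 lower.

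Some genes of cell death and arrest were higher with IgA and others lower. Over the 6 fits that left out a library, the median was 0.22 to 0.36 for CDK inhibitors and G1 regulators. It was 0.12 to 0.17 for the BCL2 family and -0.31 to -0.21 for death receptors and their ligands. The genes named here are single members and do not stand for their lists. GDF15, a stress cytokine, had 1960, 778 and 1062 normalised counts with IgA and 50.6, 53.5 and 163 with IgG (log2 change 3.85 ± 0.48, adjusted p 0.00106). The CDK inhibitor CDKN1A had 314, 212 and 372 against 68.9, 59.4 and 96.4 (log2 change 2.00 ± 0.28, adjusted p 0.00193), and CDKN2B, GADD45A and GADD45B rose by 1.21, 1.77 and 2.01. The pro-death BH3 genes BBC3 and PMAIP1 rose by 1.99 and 1.48, while BMF, of the same class, fell by 1.13. The death receptor TNFRSF10B rose by 0.92 and its ligand TNFSF10, which encodes TRAIL, fell from 214, 222 and 335 to 68.3, 103 and 64 normalised counts (log2 change -1.70 ± 0.28, adjusted p 0.0042). Of 22 genes listed as p53 targets 7 were higher and 2 lower (1 if IgA replicate 1 or IgG replicate 3 was left out and 4 if IgA replicate 2 was left out), and TP53INP1 fell by 1.38. XPC and DDB2, repair genes of the same list, were at -0.28 and -0.31, neither called.

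Several developmental pathways held decreases. Of 33 WNT genes 4 were higher (2 if IgG replicate 2 or IgG replicate 3 was left out) and 7 lower (3 if IgA replicate 1 or IgG replicate 2 was left out and 2 if IgG replicate 3 was left out). AXIN2, a feedback target of WNT signalling, fell from 156, 221 and 182 normalised counts with IgG to 36.8, 60.3 and 16.4 with IgA (log2 change -2.26 ± 0.39, adjusted p 0.00532), and the receptor FZD4 fell from 486, 587 and 709 to 151, 190.1 and 83.4 (log2 change -2.05 ± 0.28, adjusted p 0.00161). Both were separate between groups, with the untreated libraries at 213, 216 and 201 for AXIN2 and 645, 569 and 748 for FZD4. The ligand WNT7A rose by 1.18. Of 23 Notch genes 7 were lower (3 if IgG replicate 1 or IgG replicate 2 was left out and 2 if IgG replicate 3 was left out) and 1 higher (0 if IgG replicate 3 was left out), and the median was -0.30. NOTCH3 fell from 3325, 3536 and 4294 to 1509, 2172 and 1181 (log2 change -1.20 ± 0.20, adjusted p 0.00496) and HES2 fell by 1.32, while NOTCH1 was at 0.06 and was not called. In the Hedgehog list 4 of 20 were lower and 1 higher (0 if IgG replicate 2 was left out). Its co-receptors GAS1 and BOC fell by 2.01 and 1.44 on the log2 scale.

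Of 22 genes that mark serous ovarian and Müllerian cells 6 were lower (3 if IgG replicate 2 was left out and 2 if IgG replicate 3 was left out) and 1 higher (0 if IgG replicate 1 or IgG replicate 2 or IgG replicate 3 was left out), with a median of -0.30. SOX17, a lineage factor of fallopian tube epithelium, fell from 2005, 2117 and 2639 normalised counts with IgG to 850.3, 1212 and 794 with IgA (log2 change -1.24 ± 0.18, adjusted p 0.00216), against 1982, 2278 and 2487 in untreated cells. WT1 had a log2 fold change of -1.17, a call that did not hold without IgA replicate 1 (-1.19, adjusted p 0.0586) and IgG replicate 3 (-1.12, adjusted p 0.0779). WT1 and UPK3B are also markers of mesothelium, of which 4 were tested and these 2 were called lower, with a summed level of 5687 to 7843 with IgA and 9220 to 11672 with IgG, and HAS1 and ITLN1 were at 0 in every library. The value of UPK3B was -0.54, a call that did not hold without IgA replicate 1 (-0.47, adjusted p 0.0889), IgG replicate 2 (-0.56, adjusted p 0.0952) and IgG replicate 3 (-0.41, adjusted p 0.121). PAX8, the other lineage factor of these tumours, was at 0.34, MUC16, the CA125 antigen, at 0.49 and WFDC2 at -0.27, none called. FOXJ1, the master factor of motile cilia, fell from 48.9, 62 and 80 to 7.36, 4.64 and 14.9 (log2 change -2.88 ± 0.52, adjusted p 0.00638), and the other 25 tested genes of motile cilia were not called. Leaving out a library gave 4 lower genes in that list without IgA replicate 3, 2 without IgA replicate 1, and 1 higher without IgA replicate 1 or IgA replicate 2.

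The largest decreases among better expressed coding genes were in genes of varied function. KLHL14, a Kelch-type ubiquitin ligase adaptor on chromosome 18, 30252636 to 30352986 (GRCh37), fell from 4913, 5129 and 5204 normalised counts with IgG to 915, 1766 and 624 with IgA (log2 change -2.20 ± 0.30, adjusted p 0.00168). The forkhead factor FOXQ1 on chromosome 6, 1312333 to 1314993 fell from 805, 1157 and 1645 to 236, 262 and 104 (log2 change -2.56 ± 0.34, adjusted p 0.00141). For both the untreated libraries, at 5462, 4986 and 5232 for KLHL14 and 1372, 1140 and 1466 for FOXQ1, lay with IgG and apart from IgA. TMEM100, PPP1R16B, FAM124A and THRSP fell by 2.77, 2.78, 2.48 and 2.19 on the log2 scale. Among 56 channel genes 10 were lower (5 if IgA replicate 1 or IgG replicate 1 was left out, 4 if IgG replicate 2 was left out and 2 if IgG replicate 3 was left out) and 3 higher (1 if IgG replicate 3 was left out). The T-type calcium channel gene CACNA1H went from 51.5, 104 and 96.4 normalised counts with IgG to 11.6, 10.2 and 11.9 with IgA (log2 change -2.90 ± 0.43, adjusted p 0.00252), and its untreated libraries stood at 46.8, 54.3 and 55.8. In the receptor transport list 2 of 26 genes were lower, RAB17, a vesicle GTPase of epithelial transcytosis, by 1.15 and EXOC1 by 0.72, and 2 were higher (1 if IgA replicate 1 or IgA replicate 3 or IgG replicate 1 was left out and 0 if IgG replicate 2 or IgG replicate 3 was left out). The lower share of this list is near the 7.72% of all genes, and its higher share is below their 9.31%.

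**Figure D4:**
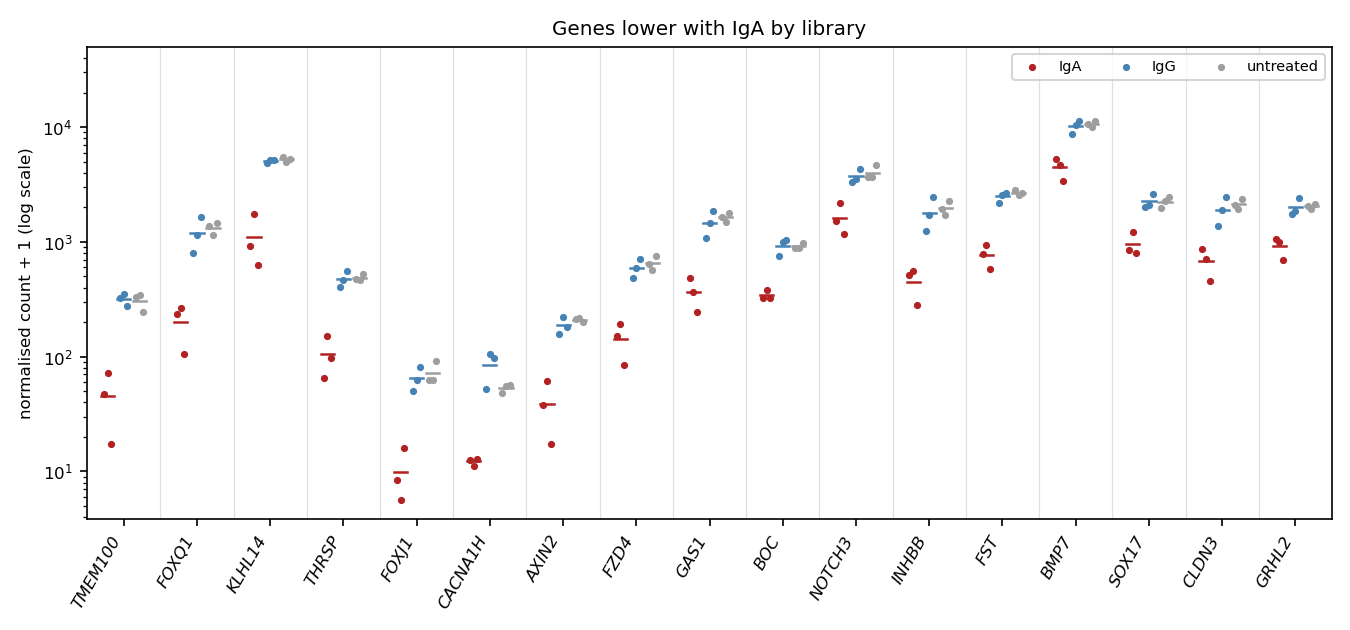
Normalised count plus 1 on a log axis for 17 genes that were lower with IgA in each IgA, IgG and untreated library, with a bar at the mean of each group of 3. The IgA points lie below all IgG points for every gene shown, and the untreated points overlap the IgG points for each of them.

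Whole classes of genes differed in direction. Of 485 ZNF-numbered zinc finger genes, many of them repressors that bind DNA, 88 or 18.1% were lower (48 if IgA replicate 1 was left out, 42 if IgG replicate 1 was left out, 31 if IgG replicate 2 was left out and 20 if IgG replicate 3 was left out) and 17 higher (7 if IgG replicate 1 was left out and 3 if IgG replicate 2 or IgG replicate 3 was left out), against 7.72% and 9.31% of all genes, and the median was -0.27. Of the 88, 19 remained called in every fit that left out a library. ZNF780B had 1072, 1611 and 1790 normalised counts with IgA and 3523, 3653 and 4728 with IgG (log2 change -1.41 ± 0.19, adjusted p 0.00161), and ZNF546, ZNF552 and ZNF587B fell by 1.59, 1.52 and 1.41. ZNF165 and ZNF143 rose by 1.57 and 1.06. Many of these genes are near-identical copies in clusters, so reads may be shared or lost between them. Antisense genes gave 25 of 256, or 9.77%, lower (15 if IgA replicate 1 or IgG replicate 1 was left out, 10 if IgG replicate 2 was left out and 5 if IgG replicate 3 was left out) and 4 higher (7 if IgA replicate 2 was left out and 1 if IgG replicate 1 or IgG replicate 2 or IgG replicate 3 was left out), with a median of -0.30. The lower share is near the 7.72% of all genes, and their reads cannot be told from those of the gene on the other strand because no source says that strand was used in counting.

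Cytosolic ribosomal protein genes lay on the other side, with 20 of 83 higher (6 if IgA replicate 1 was left out, 35 if IgA replicate 3 was left out, 1 if IgG replicate 1 or IgG replicate 2 was left out and 0 if IgG replicate 3 was left out), 0 lower and a median of 0.35, but no call among them held in every fit and 0 passed under scaling by library size alone, where the median was 0.11. These genes have many pseudogenes. Abundance moved with direction over all genes. Among genes in the lowest bin of mean count, of 5 equal bins, 1.46% were higher and 2.5% lower, with a median log2 fold change of -0.20, and in the highest bin 18.3% were higher and 7.54% lower, with a median of 0.13. The median normalised count was 267 for the zinc finger genes and 18630 for the ribosomal protein genes. The part of abundance in the class differences was not tested.

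**Figure D5:**
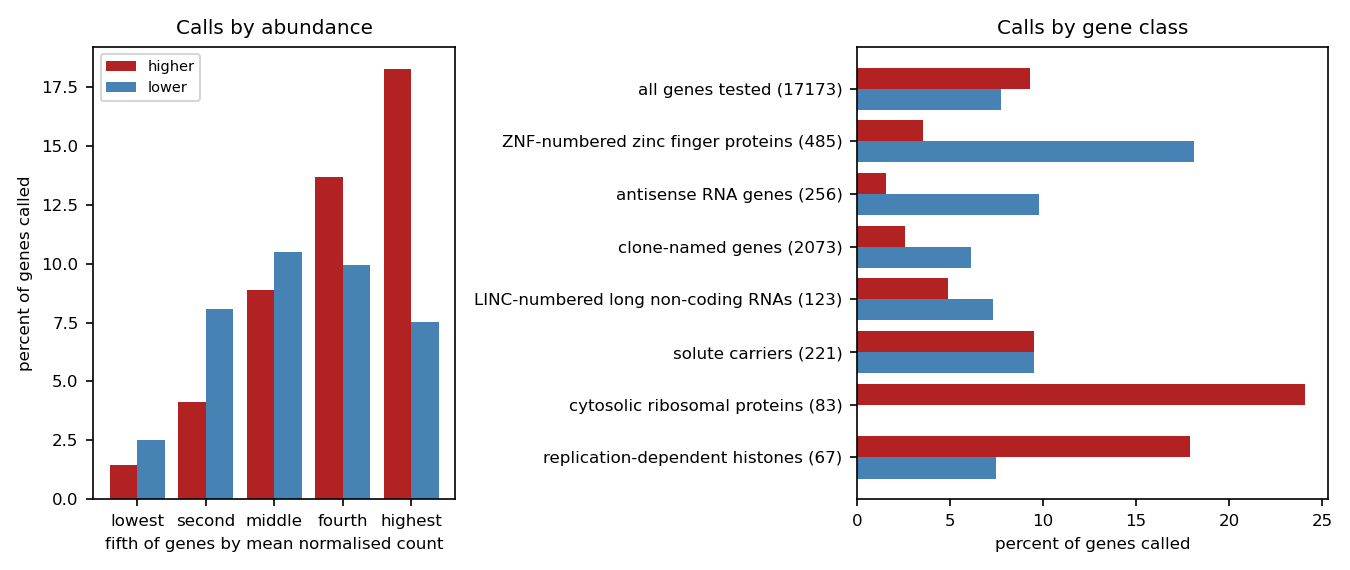
Left, percent of genes called higher or lower (y axis) in 5 equal bins of the tested genes by mean normalised count (x axis). Right, percent called higher or lower (x axis) in all tested genes and in 7 gene classes (y axis, number tested in brackets), where zinc finger genes show 18.1% lower against 7.72% of all genes.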

How the data were processed

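RNA of trypsinised OVCAR3 cells was extracted with a column kit and DNase, made into libraries with an FFPE RNA-seq kit and sequenced in pairs on a NextSeq 550. The authors trimmed reads with cutadapt, aligned them with STAR to GRCh37 (hg19) and deposited raw counts per gene symbol. The counting tool was featureCounts by the methods, whereas the submitters' processing notes name HTSeq 0.6.1, cutadapt 1.8.1 and bcl2fastq 2.20.0.422. No use of strand is stated, so overlapping and antisense genes cannot be told apart. Reads that match near-identical copies may be lost. All count columns of the first of 2 tables were read, 9 in number, and the second table holds antigen-specific antibodies and was not used here.

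The fit took the 6 IgA and IgG libraries, genes kept by edgeR's filterByExpr, TMM factors and edgeR 4.0.16 quasi-likelihood tests (R 4.3.3), two-sided, adjusted over all 17173 genes. The methods name DESeq2, but IgA libraries spread more than the others, so the untreated libraries were left out of the fit and DESeq2 1.42.0 served as an alternative, as did limma 3.58.1 (voom with sample quality weights), other scalings and filters, a replicate block and leaving out each library in turn. Fold changes came from the fit at edgeR's default prior count. A prior count of 2 was used only for the correlations between libraries of the same replicate number. Floors were 3 counts in each library and cover counting error only. The fit was also run on simulated counts, with far fewer changed genes than were called here and equal numbers in each direction. The simulation had no outlying library such as IgA replicate 3, so it does not cover these features of the data. The members, the 81 gene lists and the tests were chosen with earlier results of these data known. Genes were named as the 4 strongest called members of a list in each direction, its most abundant member, the 15 largest changes each way among genes with a mean of at least 50 normalised counts, the 10 most abundant genes changed by log2 1 or more, and 6 genes named from the start (PIGR, FOXJ1, HSPA6, PCK1, LRRC32 and CACNA1H). The text gives a selection of the 418 genes so named, and further members were added after their values were seen. Some genes are not reported here. Promoters were taken from the RefSeq table (GRCh38.p14), which had 11487 of the tested genes.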

Additional observations from a re-analysis of the deposited data

How the results depend on the processing

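The counts of 1599 higher and 1326 lower genes depended on scaling, threshold and single IgG libraries. With library size alone as the scale, 634 genes were higher and 2210 lower, an adjusted p under 0.01 gave 551 and 387, and a test against a log2 fold change of 0.5 gave 352 and 218. The fit of all 9 libraries gave 2258 and 2102, of which the lower count was more than 1.5 times the reported one. Leaving out 1 library gave 530 to 1860 higher and 349 to 1762 lower genes. DESeq2, limma-voom, RLE and upper quartile factors, both other filters and the removal of mitochondrial and ribosomal RNA genes gave counts within 1.5 times. Of 3677 values of named genes under the alternatives 3550 kept direction and side of the threshold. The calls of ACTB, ACTN1, ATF6, CANX, DHCR7, HK2, JUNB, LDHA, NQO1 and PDIA6 were lost under scaling by library size alone, and 33 called genes did not pass against a log2 fold change of 0.5. The genes whose sign turned were not called. With library size alone ATF4 stood at -0.17, EPCAM and HSPA8 at -0.20, NOTCH1 at -0.19 and YAP1 at -0.02, and EPCAM and HSPA8 were at -0.03 with upper quartile factors. With limma-voom MUC16 was at -0.01, NOTCH1 at -0.01 and SRF at 0.01. Leaving out 1 library in turn gave -0.03 to 0.17 for ATF4, -0.07 to 0.14 for EPCAM, -0.11 to 0.17 for HSPA8, -0.27 to 0.87 for MUC16, -0.04 to 0.11 for NOTCH1 and -0.10 to 0.06 for SRF. The cause was not tested. Libraries of the same replicate number did not deviate together (correlations -0.0707, -0.0426 and -0.0311), so the numbers were not used as pairs, and the fit with a replicate block gave 1183 higher and 1030 lower genes, with the calls of ATF6, CANX and TM7SF2 lost. Genes at a few counts, such as AREG, LRRC32 and PCK1, have imprecise fold changes at this depth.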

Other observations

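Some RNA-handling genes changed in opposite directions. Of 26 genes of mRNA decay and translational repression 5 were higher (3 if IgG replicate 1 or IgG replicate 2 was left out) and 3 lower. ZFP36L1, which binds AU-rich elements and speeds decay, had 30525, 20852 and 45684 normalised counts with IgA and 7961, 9183 and 8982 with IgG (log2 change 1.89 ± 0.24, edgeR adjusted p 0.00111), and the ribonuclease gene ZC3H12A had 722, 1020 and 600.1 against 230.4, 311 and 199 (log2 change 1.66 ± 0.23, edgeR adjusted p 0.00197). The decapping enzyme DCP2 and the silencing scaffold TNRC6A fell by 0.72 and 0.84. Among 32 splicing genes 6 were higher (3 if IgG replicate 2 was left out) and 4 lower (2 if IgG replicate 1 or IgG replicate 2 was left out). The kinases CLK1 and CLK3 and the factor SRSF4 rose by 1.07, 0.90 and 1.02, whereas SRSF5 and SRSF6 fell by 0.84 and 1.08.

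Single clock genes also changed in both directions. The median of the clock list was -0.07 to 0.18 over the 6 fits that left out a library. In every such fit 3 of its genes stayed called as higher and 1 as lower. NR1D1, a nuclear receptor that represses clock genes, had 4908, 2391 and 6103 normalised counts with IgA and 627, 809.8 and 559 with IgG (log2 change 2.74 ± 0.30, edgeR adjusted p 0.000595). PER1 rose by 2.57 and BHLHE40 by 1.96, while BHLHE41 fell by 1.04. TSC22D3, which encodes the glucocorticoid-induced leucine zipper protein, rose by 2.59.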
